A study of Solanum lycopersicum with 8 samples.

Results

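The genes described here move sugars across membranes in tomato (Solanum lycopersicum) leaves, make and split sucrose, and build and break down starch. They are the genes whose description in the deposited count table holds any of 8 terms: bidirectional sugar transporter, sugar transport protein, sucrose, invertase, fructofuranosidase, starch, amylase or hexokinase. This gave 116 of the 29081 genes in the table, each represented by its transcript with the highest total count. Leaves were harvested at 2 h and at 6 h, either as controls or with tunicamycin. That compound stops cells from attaching N-linked glycans to new proteins, which stresses the endoplasmic reticulum. Each of the 4 groups held 2 biological replicates, so n = 2 for every group. The labels give no cultivar, plant age, tunicamycin dose or time of day, and do not say what the controls received or whether plants were pooled.

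In a leaf, carbon fixed by day is divided between sucrose, made in the cytosol and exported through the phloem, and starch, stored in the chloroplast and broken down later. SWEET proteins let sugars pass down their gradient through a membrane, sucrose transporters load the phloem against it, and invertases and sucrose synthases split sucrose where it is used. Starch synthases lengthen the glucan chains of the granule, isoamylases trim their branches, and beta-amylases release maltose from them. Many of these genes are known to follow the day and the sugar status of the leaf.

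Library totals ran from 4689769 to 122784850 counts, and the 2 libraries of a group differed by 5.49-fold to 9.98-fold. Replicate 2 was the deeper one among controls, and replicate 1 with tunicamycin, at both times. The 116 genes took between 0.15% and 0.216% of all counts. As a check of the tissue, 35 markers of leaf mesophyll (Rubisco small subunits, chlorophyll-binding and photosystem I proteins) were summed, and none was at 0 throughout. The sums lay between 25800 and 54500 CPM (reads of a gene relative to all reads counted in its library). Both extremes were tunicamycin libraries at 6 h, replicate 1 at 25800 and replicate 2 at 54500. Ribosomal RNA took 0.115% and 2.56% of the counts in those libraries. Genes named for other organs also had counts. Over the 8 libraries, pollen or anther genes summed to between 418 and 685 CPM, fruit genes to between 520 and 986 CPM, and seed storage genes to between 68.3 and 395 CPM. These sums and the levels below are CPM scaled by TMM, the trimmed-mean scaling of edgeR. Levels are compared only within a gene, since transcript length is not corrected for. In whole leaves, fewer cells of a type and less RNA per cell cannot be told apart.

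Of the 116 genes, 86 had enough counts to be tested, and the other 30 did not. Among those 30, 11 had no count in any library, and the highest total of any of them was 70 counts over the 8 libraries. The untested genes were mostly transporters. They included 14 of the 30 SWEET genes and 7 of the 10 hexose/proton symporters, the carriers that bring glucose and its relatives into cells. All 6 sucrose synthases, all 7 starch synthases, all 7 beta-amylases and all 7 genes with hexokinase in their description were tested. A gene was called when its Benjamini-Hochberg adjusted p in edgeR's quasi-likelihood test, over all transcripts, was under 0.05.

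The clearest differences among these genes lay between the harvest times. Averaged over both arms, 5 of the 86 tested genes were called between 6 h and 2 h, beside 1.79% of all genes tested. A beta-amylase, 2 SWEET genes and a gene of the amylase inhibitor and lipid-transfer superfamily fell, and a soluble starch synthase rose. The median log2 fold change of the 86 genes was -0.12, against 0.01 for all genes. Time since treatment and time of day cannot be told apart in this design.

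LOC101259175, a chloroplastic beta-amylase 3-like gene, codes for an enzyme of the type that cuts maltose from starch. Its level was 19.1 and 7.52 CPM in the control libraries at 2 h, and 22.5 and 17.0 CPM in the tunicamycin libraries at 2 h. At 6 h it was 0.704 and 2.05 CPM in controls and 2.48 and 2.87 CPM with tunicamycin. All 4 libraries at 2 h lay above all 4 at 6 h. The gene fell 8.12-fold, a log2 change of -3.02 ± 0.38 (SE; edgeR adjusted p = 0.000638). It was also called in control leaves alone (log2 change -3.14, edgeR adjusted p = 0.0226) and in tunicamycin leaves alone (-2.90, edgeR adjusted p = 0.0242). Leaving out control replicate 1 at 2 h or either tunicamycin library at 2 h ended the call in controls, and leaving out any of the 4 tunicamycin libraries ended it in tunicamycin leaves (adjusted p between 0.0595 and 0.295).

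LOC101255592, described as the bidirectional sugar transporter N3, is a SWEET gene with few counts. At 2 h it stood at 2.85 and 3.44 CPM in controls and at 3.60 and 4.82 CPM with tunicamycin. At 6 h it stood at 0.201 and 0.174 CPM in controls and at 0.0784 and 0.273 CPM with tunicamycin, which is 4, 22, 8 and 4 counts in those libraries. The times did not overlap in either arm. The log2 change was -4.50 ± 0.58 (SE; edgeR adjusted p = 0.000717), or 22.7-fold. Within single arms the gene was called in tunicamycin leaves (-4.92, edgeR adjusted p = 0.0164) and just passed in control leaves (-4.09, edgeR adjusted p = 0.048), a call that was lost in 11 of 19 alternative analyses, 6 of them without 1 of the libraries at 2 h or of the controls at 6 h (adjusted p between 0.0807 and 0.351). In tunicamycin leaves the call was lost without control replicate 2 or either tunicamycin library at 2 h, or without tunicamycin replicate 1 at 6 h (0.05004 to 0.136). The averaged falls of LOC101259175 and LOC101255592 were called in all 18 alternatives run.

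LOC101265012, described as SWEET10, was at 19.9 and 19.5 CPM in controls at 2 h and at 16.2 and 9.33 CPM with tunicamycin. By 6 h it was at 9.56 and 7.17 CPM in controls and at 5.06 and 6.01 CPM with tunicamycin. In each arm both later libraries lay below both earlier ones, although 1 tunicamycin library at 2 h lay below 1 control library at 6 h. It fell by 1.24 ± 0.26 on the log2 scale (SE; edgeR adjusted p = 0.0299). The call was lost in 6 of 18 alternatives, with adjusted p between 0.0577 and 0.142. Of these, 5 left out a library, namely either control or tunicamycin replicate 1 at 2 h, or either tunicamycin library at 6 h.

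LOC101259221 codes for soluble starch synthase 1, an enzyme that adds glucose to the growing chains of amylopectin. Its level was 7.73 and 11.2 CPM in controls and 8.74 and 9.01 CPM with tunicamycin at 2 h. At 6 h it was 14.8 and 33.3 CPM in controls and 21.5 and 28.3 CPM with tunicamycin, so that every later library lay above every earlier one. It rose 2.64-fold, a log2 change of 1.40 ± 0.28 (SE; edgeR adjusted p = 0.0217). Leaving out any 1 of the 4 libraries at 2 h ended this call, with adjusted p between 0.0759 and 0.144.

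LOC101245586 belongs to a superfamily of small secreted proteins that takes in alpha-amylase inhibitors, lipid-transfer proteins and seed storage proteins, so its name does not fix its role. It was at 13.4 and 15.8 CPM in controls and at 23.8 and 19.9 CPM with tunicamycin at 2 h. At 6 h it was at 9.21 and 6.39 CPM in controls and at 9.15 and 9.15 CPM with tunicamycin. The earlier libraries all lay above the later ones. It fell by 1.09 ± 0.24 on the log2 scale (SE; edgeR adjusted p = 0.0358), a call lost in 9 of 18 alternatives, among them the fit with a replicate block (adjusted p = 0.0597) and the fits without any 1 library other than control replicate 1 at 6 h (0.0595 to 0.148).

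**Figure D1:**
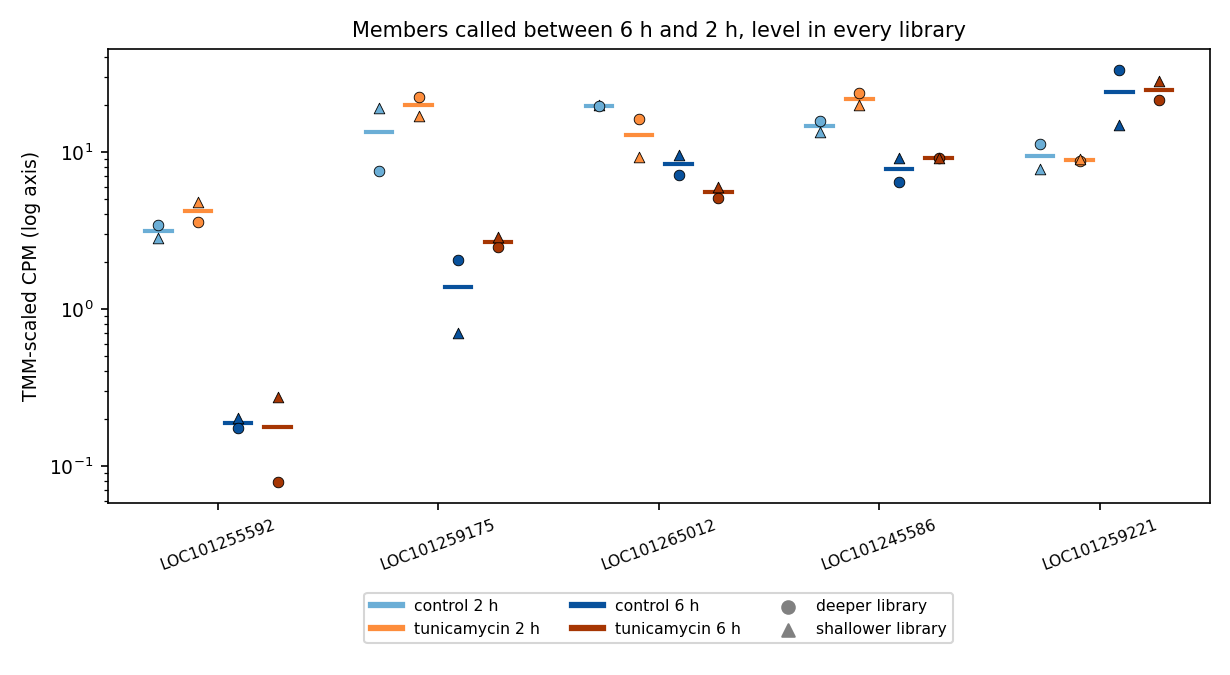
Level in every library (TMM-scaled CPM, log axis) of the 5 genes called between 6 h and 2 h. Each point is 1 library, circles the deeper and triangles the shallower of its group, and bars are group means of 2 libraries. For LOC101255592 all libraries at 6 h lie under 0.3 CPM, while LOC101259221 is the only one of the 5 with higher levels at 6 h.

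Of the 16 SWEET genes tested, 2 were called lower at 6 h, none was called higher and 14 did not pass, where 1.79% of all genes were called. A log2 change below 0 was found in 13 of the 16 (81.2%), against 49.5% of all genes. Their median log2 change was -0.80, against 0.01 for all genes. It was -1.04 between the deeper libraries and -0.63 between the shallower. LOC101261104, another gene described as N3, ranged from 48.5 to 123 CPM with no separation of the times (log2 change -0.28 ± 0.30).

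Among the SWEET genes that were not called, LOC101265550 (SWEET12) gave a log2 change of -1.85 ± 0.49 (edgeR adjusted p = 0.0819). Its libraries were at 1.22 and 2.83 CPM in controls at 2 h, 7.62 and 3.54 CPM with tunicamycin at 2 h, 0.704 and 1.73 CPM in controls at 6 h, and 0.646 and 0.888 CPM with tunicamycin at 6 h. The 2 h tunicamycin libraries were the highest of the 8. SWEET12-type proteins are known in Arabidopsis for releasing sucrose from leaf cells for phloem loading.

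Of the 16 SWEET genes tested, 3 lay above 0 between the times, the highest at a log2 change of 1.38. LOC101246599 (SWEET2a-like) was 1 of the 3, though not the highest. In controls it was at 2.44 and 4.63 CPM at 2 h and at 8.50 and 11.8 CPM at 6 h, and with tunicamycin at 8.59 and 8.04 CPM at 2 h and at 19.7 and 12.3 CPM at 6 h. The later libraries were above the earlier in each arm, with a log2 difference of 1.20 ± 0.29 that missed the threshold (edgeR adjusted p = 0.0592). SWEET2 proteins in Arabidopsis sit in the vacuolar membrane.

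LOC101258901, a SWEET16-like gene, had 6, 12, 28 and 0 counts in the libraries at 2 h, and 2, 12, 0 and 0 at 6 h, both zeros of the later time being the tunicamycin libraries. The 28 counts of a single tunicamycin library at 2 h are all that this arm holds, so no fold is given for it. The median of the SWEET genes was the same to 2 decimals with this gene set to a floor of 3 counts over the group at 0. Its own test did not pass (edgeR adjusted p = 0.255 in tunicamycin leaves).

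Some SWEET genes lie next to one another in the RefSeq gene order, with at most 1 other gene between neighbours. The longest run held 7 of them, of which only LOC101265012, LOC112940022 (SWEET12-like) and LOC101263195 (SWEET10-like) had enough counts. LOC112940022 lay between 6.75 and 11.7 CPM at 2 h and between 3.65 and 5.53 CPM at 6 h (log2 change -0.97 ± 0.28, edgeR adjusted p = 0.119). LOC101263195 gave -0.55 ± 0.43. LOC101265550 and LOC101247627 (SWEET9-like, -2.63 ± 0.83) also neighbour each other. So do LOC101258946 and LOC101259239, both SWEET1-like. In the authors' deposited table for 6 h against 2 h with tunicamycin they ran opposite ways, at log2 values of -2.17 and 0.80. The latter had a false discovery rate of 0.824 there. How the authors' counting treated reads that fit more than 1 such copy is not given in the sources used here, so the split between neighbouring or closely related copies is uncertain.

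**Figure D2:**
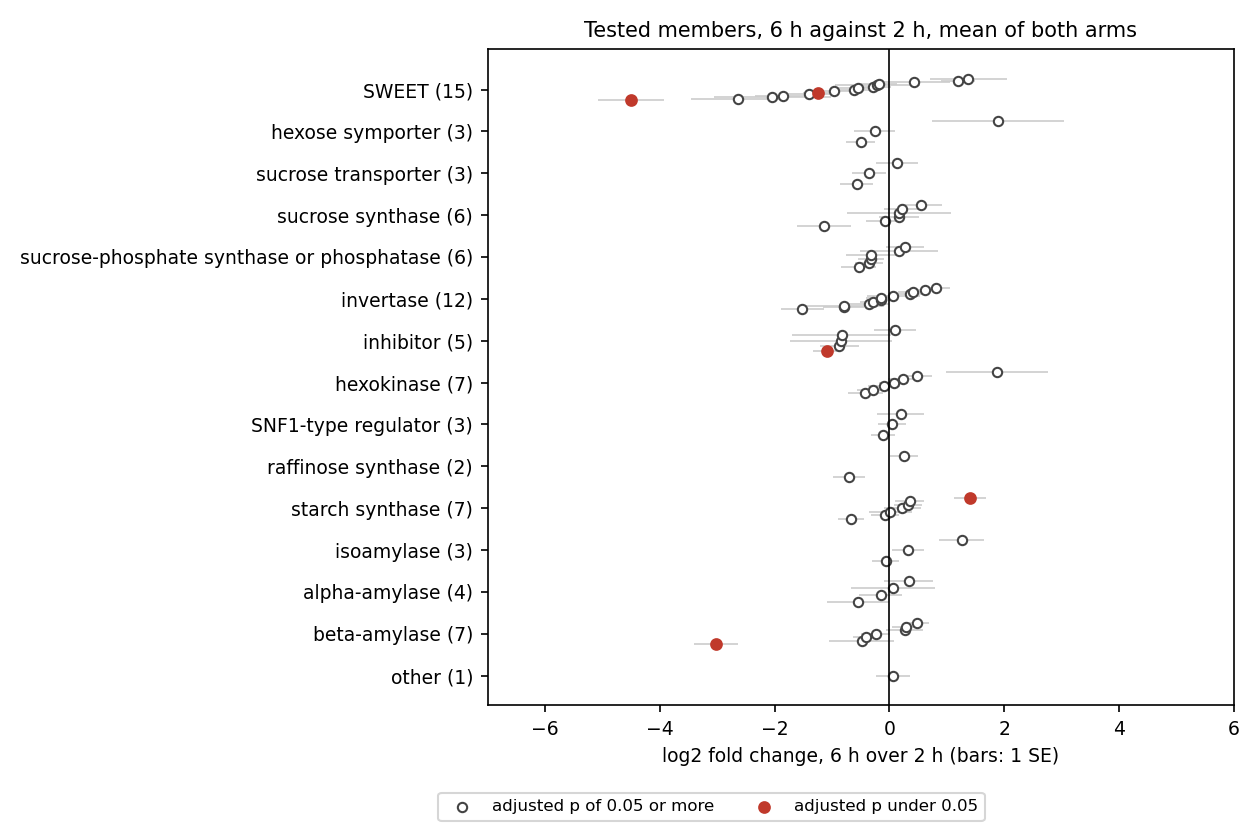
Log2 fold change between 6 h and 2 h, mean of both arms, for the 84 tested genes with a count in every group, by role. Each point is 1 gene, bars are 1 SE, filled points passed the threshold, and numbers in brackets count the genes drawn. The filled points are 2 SWEET genes at -4.50 and -1.24, a beta-amylase at -3.02, an inhibitor-type gene at -1.09 and, the only one above 0, a starch synthase at 1.40.

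Invertases split sucrose into glucose and fructose, in the cell wall and vacuole (acid type) or in the cytosol and organelles (alkaline/neutral type). Of the 13 tested, 6 lay above and 7 below 0 between the times, with a median log2 change of -0.14 and a lowest adjusted p of 0.0664. That p belonged to Wiv-1, an acid invertase of the cell wall type. Wiv-1 was at 19.5 and 12.6 CPM in controls and 25.1 and 14.5 CPM with tunicamycin at 2 h, and at 8.86 and 6.18 CPM and 7.88 and 2.05 CPM at 6 h (log2 change -1.52 ± 0.37). All its earlier libraries exceeded the later. Its neighbour in the gene order, LIN8, gave -0.80 ± 0.36.

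Among the alkaline/neutral invertases, LOC100134879 (probable type D) lay between 120 and 214 CPM (0.41 ± 0.26). LOC101252138, also of type D, lay between 47.6 and 88.0 CPM at 2 h and between 93.9 and 128 CPM at 6 h, without overlap (0.81 ± 0.25, edgeR adjusted p = 0.156). The acid invertase lin9 had no count in either tunicamycin library at 2 h and 15 counts in 1 control library there, and no fold is given for it.

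Sucrose synthesis showed no called difference between the times. The 6 sucrose-phosphate synthases and sucrose-phosphatases, the pair of enzymes that makes sucrose in the cytosol, had a median log2 change of -0.32 and a lowest adjusted p of 0.476. The gene sps ranged from 28.4 to 61.3 CPM (-0.32 ± 0.22), and the phosphatase LOC543710 from 24.5 to 49.2 CPM (-0.36 ± 0.25). The 6 sucrose synthases, which split sucrose reversibly to give UDP-glucose, lay above 0 in 4 cases and below in 2. LOC543961, a sucrose synthase, ranged 10.4-fold, from 3.25 CPM in a control library at 6 h to 33.8 CPM in one at 2 h (-1.14 ± 0.47, edgeR adjusted p = 0.324). The sucrose synthase sus3 lay between 29.8 and 81.0 CPM (0.22 ± 0.31).

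Among the transporters that work against a gradient, the sucrose carrier SUT2 lay between 8.33 and 24.3 CPM (-0.57 ± 0.29) and the hexose symporter STP12 between 28.4 and 78.2 CPM (-0.50 ± 0.26). STP11, a second symporter, lay between 2.32 and 10.1 CPM (-0.26 ± 0.35). None of the differences of these 3 genes passed, the lowest edgeR adjusted p being 0.411 for SUT2.

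Starch genes other than those called differed less. GBSS1, the granule-bound synthase that makes amylose, lay between 45.4 and 74.4 CPM (-0.08 ± 0.24), and LOC101252941, granule-bound synthase 2, between 12.2 and 24.8 CPM (0.33 ± 0.25). The isoamylase LOC101249741 (isoamylase 1) lay between 1.61 and 2.44 CPM at 2 h and between 2.57 and 5.86 CPM at 6 h, without overlap (1.26 ± 0.39, edgeR adjusted p = 0.155). The other 2 isoamylases, LOC101261524 and LOC101250336, gave -0.06 ± 0.24 and 0.33 ± 0.28.

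The remaining beta-amylases bracketed 0. LOC101253815, named chloroplastic beta-amylase 3 like the called gene, lay between 70.6 and 159 CPM (-0.24 ± 0.25), and BAM1 between 32.8 and 60.0 CPM (-0.41 ± 0.22). The fall of LOC101259175 was thus not seen at the same size in the other 6 beta-amylases, whose log2 changes ran from -0.48 to 0.47. The difference between the genes was not tested. LOC101257661, alpha-amylase 3 of the chloroplast, ranged from 25.2 to 129 CPM (0.34 ± 0.43), and LOC101250886, a probable alpha-amylase 2, from 2.03 to 4.54 CPM (-0.15 ± 0.38).

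Hexokinases phosphorylate glucose and, in Arabidopsis, also sense it. HXK3 lay between 28.9 and 61.0 CPM (0.23 ± 0.25) and hxk1 between 10.3 and 28.9 CPM (0.49 ± 0.26). One of the 7 genes in this group, LOC101262237, is described as a ketohexokinase, a different enzyme. The sucrose nonfermenting 4-like genes, named after a yeast subunit of an energy-sensing kinase, differed in how far their libraries spread. LOC101267445 spanned only 1.34-fold from its lowest to its highest library, the narrowest span of the 75 tested genes with a count in every library. LOC101245800 lay between 16.7 and 31.4 CPM, and LOC101243974 spanned 3.71-fold. The starch-binding protein LOC101251213 lay between 8.13 and 15.1 CPM (0.06 ± 0.30).

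Over the same 75 genes, the highest library exceeded the lowest by a median of 2.81-fold. In 17 genes the span was under 2-fold. In 5 it was over 10-fold, namely LOC543961, LOC101265550, Wiv-1, LOC101259175 (32.0-fold) and LOC101255592 (61.6-fold). In each of these 5 the lowest library was one at 6 h.

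Within single arms, 2 of the 86 genes were called between the times in control leaves (0.306% of all genes were) and 2 in tunicamycin leaves (0.764% of all genes). In both arms these were LOC101259175 and LOC101255592. Requiring that both libraries at 6 h lie beyond both at 2 h in each arm, 7 genes lay higher and 8 lower, which is beside 6.66% and 7.53% of all genes.

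**Figure D3:**
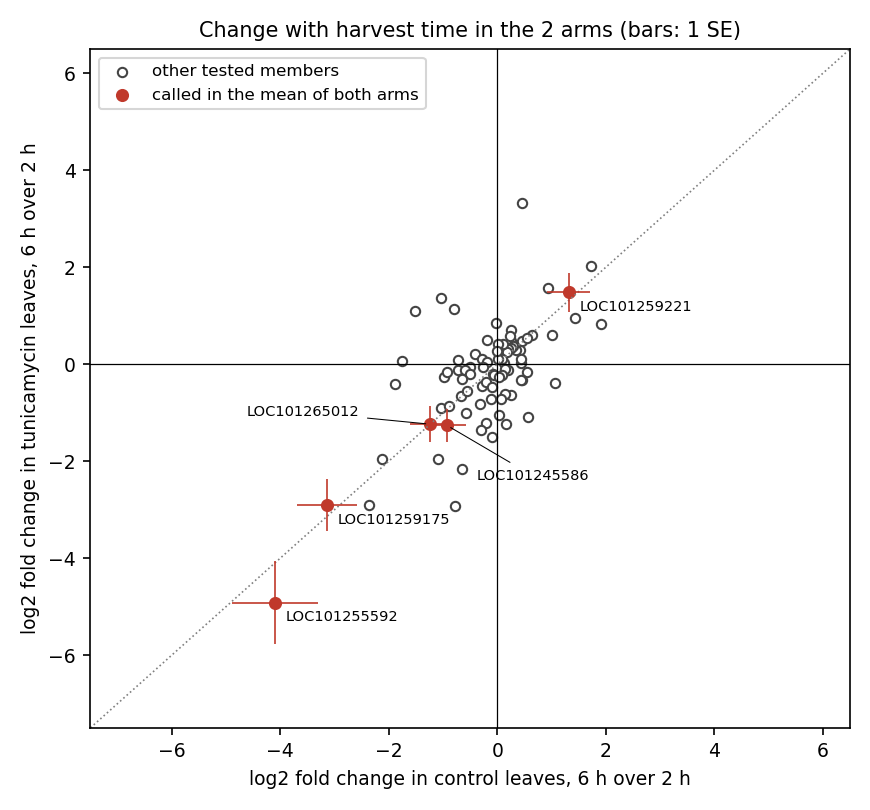
Log2 fold change between 6 h and 2 h in control leaves (horizontal) and in tunicamycin leaves (vertical) for the 84 tested genes with a count in every group. The dotted line marks equal change, and bars are 1 SE for the 5 genes called in the mean of both arms. The 5 have the same sign in both arms, from LOC101255592 at -4.09 and -4.92 to LOC101259221 at 1.32 and 1.49.

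The change with time ran the same way in both arms for 61 of the 86 genes (70.9%), against 65.1% of all genes. Across these genes, which share the 8 libraries and are not independent replicates, Pearson's r between the arms was 0.66, against 0.36 across all genes. By rank the gap was smaller, with Spearman's rho at 0.549, against 0.391 across all genes. The low-count genes LOC101258901 and lin9 enter these values with fitted changes that depend on the small count added in the fit.

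Tunicamycin leaves were next compared with control leaves. Glycosylation was not measured and what the controls received is not given, so a difference could not be assigned to blocked glycosylation. None of the 86 was called at 2 h or at 6 h, or in the mean of both times. A pair of sucrose synthases, an alkaline invertase, a starch synthase 4 gene and the phloem-loading carrier LeSUT1 had lower values with tunicamycin, and a SWEET2a-like gene and the invertase inhibitor CIF1 had higher ones. None of these differences, which ran from 0.75 to 1.27 in size on the log2 scale, passed the adjusted threshold.

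In numbers, edgeR called 0 of 86 at 2 h, beside 0.0542% of all genes, with 9 at an unadjusted p under 0.05 (8.76% of all genes). At 6 h it called 0, beside 0.39% of all genes, with 4 at an unadjusted p under 0.05 (5.29% of all genes). In the mean of both times it called 0, beside 1.46%, with 10 at an unadjusted p under 0.05, of which 8 were lower (9.93% of all genes in either direction). DESeq2 called 0 of these genes at 2 h and at 6 h, beside 0.87% and 1.06% of all transcripts. With limma-voom it was also 0 at both times, beside 0.0029% and 0.371%. In the mean of both times DESeq2 called 1 (2.31% of all transcripts), limma-voom called 0 (1.4%), and edgeR without the filter on low counts called 4 (2.89% of all transcripts then tested). The median log2 difference of the 86 genes in the mean of both times was -0.11, against 0.04 for all genes.

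The lowest p in the mean of both times belonged to LOC101266782, sucrose synthase 7-like. It was at 8.95 and 9.40 CPM in controls and at 4.24 and 1.29 CPM with tunicamycin at 2 h. The later libraries were at 9.31 and 6.92 CPM in controls and at 3.54 and 5.05 CPM with tunicamycin. Every control library lay above every tunicamycin library, with a log2 difference of -1.27 ± 0.35 (edgeR adjusted p = 0.141), which DESeq2 called (adjusted p = 0.0295).

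LOC101255377, sucrose synthase 5-like, was also lower in every tunicamycin library. Its control libraries lay between 5.43 and 8.51 CPM and its tunicamycin libraries between 2.71 and 4.64 CPM, without overlap (-1.0 ± 0.32, edgeR adjusted p = 0.263). At 2 h, 5 of the 6 sucrose synthases had a log2 difference below 0, with a median of -1.24. At 6 h, 3 of the 6 did, and the median was -0.30. SUS4 lay on the other side at both times (0.56 ± 0.37 in their mean). LOC101267720, described only as sucrose synthase-like, had 0 and 156 counts in controls and 6 and 0 with tunicamycin at 2 h, and 26, 68, 18 and 6 counts at 6 h, so that 1 control library carried most of its counts.

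LOC101253328, a probable alkaline/neutral invertase B, was at 7.32 and 16.0 CPM in controls and 4.46 and 4.18 CPM with tunicamycin at 2 h. Later it was at 11.3 and 4.76 CPM in controls and 3.42 and 4.64 CPM with tunicamycin. The arms did not overlap (-1.23 ± 0.35, edgeR adjusted p = 0.167). The median of all 13 tested invertases was -0.09.

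LOC101249596, a probable starch synthase 4, belongs to the type that starts new granules in Arabidopsis. At 2 h it was at 19.9 and 20.9 CPM in controls and at 12.1 and 11.9 CPM with tunicamycin, and at 6 h at 12.6 and 13.0 CPM in controls and at 8.19 and 7.10 CPM with tunicamycin. The replicates were close to each other and the arms separate at each time (-0.75 ± 0.23, edgeR adjusted p = 0.199). All 7 starch synthases had a log2 difference below 0 in the mean of both times, where 45.7% of all genes did. Their median was -0.12, beside -0.11 for the 86 genes tested. At each time alone, 1 of the 7 lay above 0.

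LeSUT1, which loads sucrose into the phloem of tomato leaves, was at 169 and 211 CPM in controls and at 81.9 and 116 CPM with tunicamycin at 2 h. By 6 h it was at 184 and 85.1 CPM in controls and at 70.3 and 102 CPM with tunicamycin. The arms were apart at 2 h and overlapped at 6 h (-0.79 ± 0.29 in the mean of both times, edgeR adjusted p = 0.398). The 17 phloem markers (sieve element occlusion and phloem proteins) summed to 184 and 309 CPM in controls and 194 and 164 CPM with tunicamycin at 2 h, and to 279, 190, 105 and 213 CPM at 6 h, with 2 of the 17 at 0. Their part in the values of LeSUT1 was not tested.

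CIF1 codes for a protein that inhibits cell wall invertase. At 2 h it was at 9.97 and 8.47 CPM in controls and at 30.8 and 8.36 CPM with tunicamycin, and at 6 h at 4.93 and 4.95 CPM in controls and at 12 and 9.97 CPM with tunicamycin. The arms were apart at 6 h only, and at 2 h a single deep library carried the difference (1.14 ± 0.34, edgeR adjusted p = 0.184). Between the shallower libraries the value was 0.38 and between the deeper 1.56. LOC101244503, of the invertase and pectin methylesterase inhibitor superfamily, lay between 8.41 and 27.0 CPM with the arms mixed (0.23 ± 0.36).

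LOC101246599, the SWEET2a-like gene described above, lay higher with tunicamycin at each time without overlap (0.90 ± 0.29, edgeR adjusted p = 0.254). In all, 1 gene lay higher and 6 lower without overlap at both times, beside 3.57% and 4.65% of all genes. The 6 were LOC101266782, LOC101253328, LOC101249596, LOC101255377, LOC101265012 (-0.60 ± 0.26) and LOC112940022 (-0.51 ± 0.28).

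**Figure D4:**
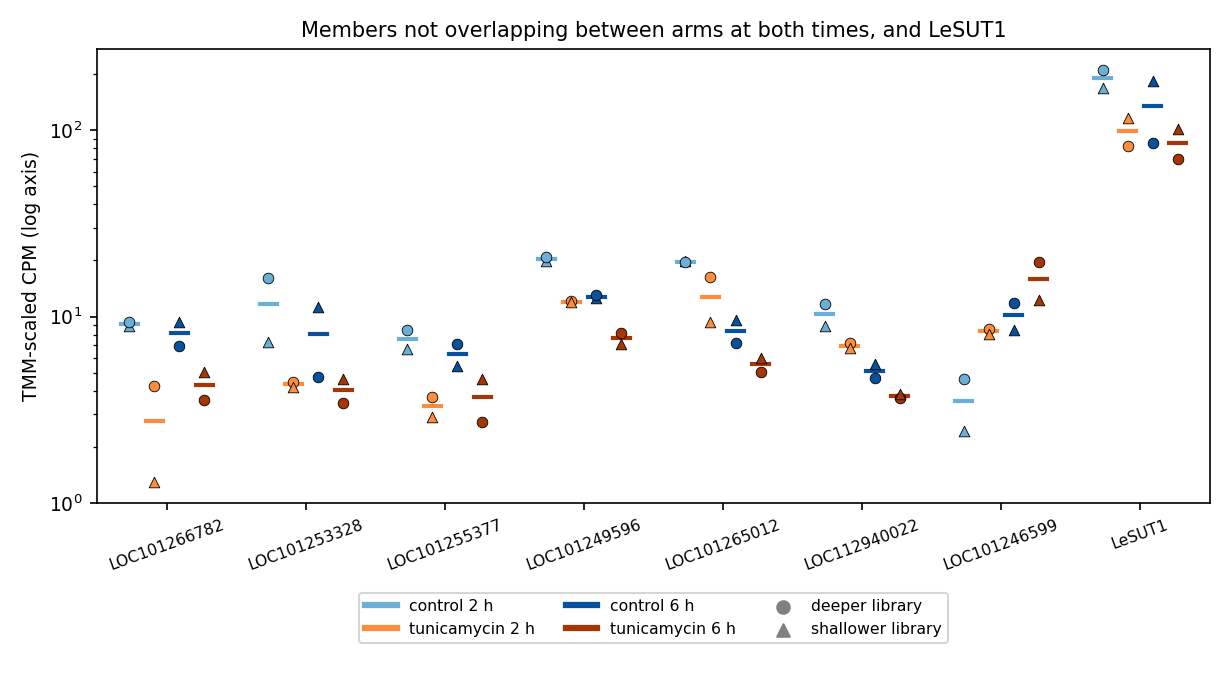
Level in every library (TMM-scaled CPM, log axis) of the 7 genes whose arms do not overlap at either time, and of LeSUT1. Circles are the deeper and triangles the shallower library of each group, and bars are group means of 2 libraries. LOC101246599 is the only one of the 7 that lies higher with tunicamycin, and none of the 8 differences passed the adjusted threshold.

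The raffinose synthase LOC101266532, which puts galactose on sucrose, had its arms apart at 2 h only. It was at 191 and 242 CPM in controls and at 509 and 422 CPM with tunicamycin at 2 h (1.10 ± 0.40, edgeR adjusted p = 0.523). By 6 h it was at 138, 238, 189 and 211 CPM, and the arms overlapped (0.09 ± 0.39). LOC101254878, the other raffinose synthase tested, lay between 12.5 and 22.6 CPM in all libraries.

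**Figure D5:**
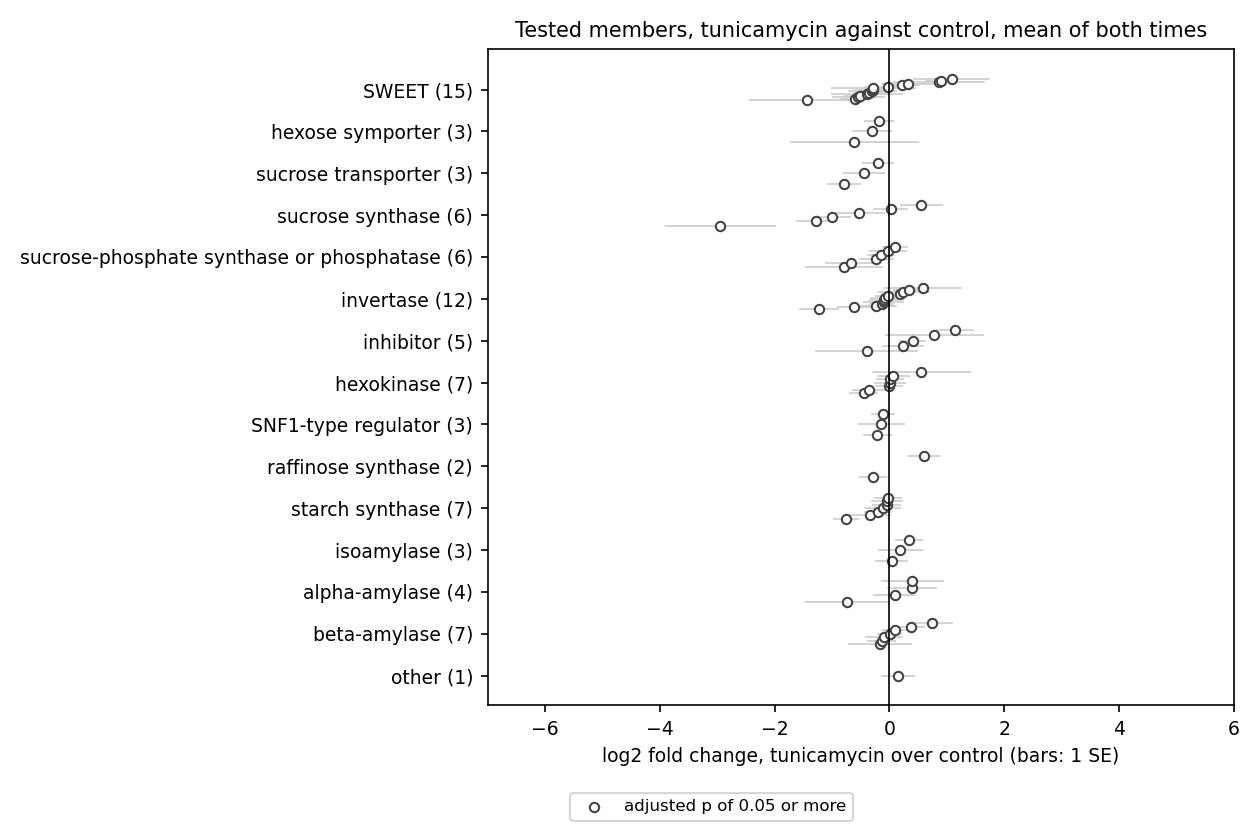
Log2 fold change of tunicamycin over control, mean of both times, for the 84 tested genes with a count in every group, by role. Each point is 1 gene and bars are 1 SE. No point passed the adjusted threshold, and most lie within 1 log2 unit of 0.

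The tunicamycin effect was also compared between the times. edgeR called 0 of the 86 genes for a difference between the effects at 6 h and 2 h, and 0.0% of all genes. DESeq2 and limma-voom also called 0 of the 86, beside 0.0% of all transcripts. At an unadjusted p under 0.05 in edgeR there were 3 (2.86% of all genes). The 3 were STP11 (-1.65 ± 0.70), the sucrose-phosphate synthase B gene LOC101055573 (-1.41 ± 0.61) and LOC101265550 (-2.14 ± 0.96), in each of which the effect was lower at 6 h than at 2 h. LOC101055573 was at 5.29 and 7.58 CPM in controls and 9.82 and 8.36 CPM with tunicamycin at 2 h, and at 5.23, 9.43, 3.54 and 4.23 CPM at 6 h. The effects at 2 h and at 6 h had the same sign in 47 of the 86 genes (54.7%), against 59.5% of all genes.

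Of 82 further genes of the same pathway outside the 8 terms, such as fructokinases, polyol and ERD6-like transporters, trehalose and starch-degrading genes, 67 were tested. edgeR called 0 of them in any of the 7 comparisons, beside 0.0% to 1.79% of all genes. DESeq2 called 0 to 3 per comparison, beside 0.0% to 3.64% of all transcripts. For limma-voom it was 0 to 1, beside 0.0% to 2.13%. For tunicamycin, the share at an unadjusted p under 0.05 was 2.99% at 2 h, 11.9% at 6 h and 7.46% in the mean of both times, against 8.76%, 5.29% and 9.93% of all genes. The 5 genes behind the last share were all lower with tunicamycin, and DESeq2 called 3 there (2.31% of all transcripts) and limma-voom 1 (1.4%). Between the times, the share was 2.99% in control leaves, 19.4% in tunicamycin leaves and 14.9% in their mean, against 5.93%, 12% and 15% of all genes. For the difference between the tunicamycin effects it was 2.99%, against 2.86% of all genes.

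The lowest p for tunicamycin belonged to LOC101250024, a probable plastidic glucose transporter 3, which lay between 10.8 and 20.6 CPM in controls and between 3.55 and 8.31 CPM with tunicamycin (-1.32 ± 0.32, edgeR adjusted p = 0.0699). PMT5, a polyol transporter, lay between 97.2 and 142 CPM in controls and between 46.0 and 90.9 CPM with tunicamycin (-0.98 ± 0.24, edgeR adjusted p = 0.0785). The fructokinase Frk1 gave -1.55 ± 0.40 (edgeR adjusted p = 0.0953). In each of these 3 every control library exceeded every tunicamycin library. Between the times, the cytosolic fructose-1,6-bisphosphatase LOC101266629, a step toward sucrose, lay between 19.5 and 30.7 CPM at 2 h and between 9.29 and 16.4 CPM at 6 h (-0.95 ± 0.25, edgeR adjusted p = 0.083).

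The authors' deposited tables cover tunicamycin at each time and the change with time in tunicamycin leaves. In the authors' deposited table for 2 h, 3 of the 116 genes had a false discovery rate under 0.05, beside 1.78% of its rows, namely LOC101257661 (log2 1.12), LOC543961 (-1.29) and LOC101267720 (-4.09). In the authors' deposited table for 6 h there were 0, beside 0.27% of its rows. In the authors' deposited table for 6 h against 2 h with tunicamycin there were 7, beside 2.49% of its rows, with LOC101259221 higher and LOC101259175, LOC101255592, LOC101265550, LOC101258946, Wiv-1 and LOC101245586 lower. Of these 7, the fit to all 8 libraries called LOC101259175 and LOC101255592 in that comparison. LOC101258946, a SWEET1-like gene, was at 12.3 and 26.4 CPM at 2 h and at 4.79 and 3.69 CPM at 6 h in tunicamycin leaves, and the control libraries at 6 h were far apart at 17.9 and 3.36 CPM.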

How the data were processed

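Leaf RNA of 8 libraries was analysed. The authors deposited raw counts of reads per RefSeq transcript, 45845 in all. Their values are whole numbers whose total differs by library. In 3 deposited comparison tables the fold changes are log2 values, the F column is a score, and the other columns hold the p-value and false discovery rate, per the file headers; the test behind them is not named, and 1 fold change in the 2 h table could not be read. Trimmomatic 0.40 appears in the submitters' processing notes, with no settings. Not given in the sources used here are the aligner, counting program, genome build and use of strand. Even numbers made up 55.6% to 76.4% of the counts above 0 in a library. Whether pairs were counted as 1 or as 2 reads is not stated. Of the 116 genes, 30 had several transcripts, whose second count was a median 0.986 of the largest. How reads shared by variants were counted is not stated.

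Counts were fitted with edgeR 4.0.16 in R 4.3.3 (filterByExpr with the 4 groups, minimum count 10 and minimum total 15, which left 34483 transcripts of 20280 genes). TMM scaling and a robust quasi-likelihood model with 1 mean per group, 4 residual degrees of freedom and two-sided contrasts followed. The Benjamini-Hochberg adjustment ran over all transcripts, with a threshold of 0.05. The SE is the log2 change divided by the square root of F. The common biological coefficient of variation was 0.353. Shares of all genes use 1 transcript per gene. A mean over both times or both arms weights each equally. Plotted folds leave out 2 genes with a group at 0.

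Named genes were every called one, the 2 with the highest mean CPM per role and the 5 with the lowest p per comparison, with the 3 lowest p for genes outside the 8 terms. All others were chosen after their values were seen. The genes, lists and roles were chosen with earlier results of these data known. Of the 116 symbols, 114 were in the RefSeq gene table used for the gene order. Alternatives were other filters and scalings, DESeq2 1.42.0, limma-voom (limma 3.58.1), a replicate block, a depth term, other units, fewer libraries and each library left out. The procedure was tested on simulated data. The replicates are labelled biological, and whether they are separate plants is not stated. No sequence table was used here.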

Additional observations from a re-analysis of the deposited data

How the results depend on the processing

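No gene of the 86 was called for tunicamycin at 2 h, at 6 h or for their difference in any alternative with 2 libraries per group. Those alternatives called 0.0029% to 1.67% of all features at 2 h and 0.0% to 1.47% at 6 h. For the difference the share was 0.0% to 0.229%. Where so few features were called, 0 of 86 says little about these genes. For the mean of both times (0 called as reported), 4 were called without the low-count filter and 1 with DESeq2 (2.89% and 2.31% of all features). For 6 h against 2 h in control leaves, 2 were called as reported. With at least 1 CPM in 2 libraries, limma-voom, the replicate block and 1 transcript per symbol, 1 was called in each. Of all features, 0.283%, 0.409%, 0.252% and 0.256% were called there. With counts added up per gene and in a fit to the 4 control libraries alone, 0 were called (0.21% and 0.229% of all features). Leaving out single libraries also ended calls in control leaves, as described above for both genes. In tunicamycin leaves (2 as reported), 7 were called without the filter, 8 with DESeq2 and 0 summed to genes (3.03%, 2.53% and 0.435% of all features tested there). In the mean of both arms (5 as reported), 14 were called without the filter and 12 with DESeq2 (4.0% and 3.64% of all features). With limma-voom there were 8, and summed to genes 3 (2.13% and 1.34%). Leaving out 1 library, which left 1 in its group, could move the number called in each of these comparisons. In tunicamycin leaves and in the mean of both arms, fewer were called without a library of 2 h than without a control library of 6 h. The same held for the share of all features called.

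Whether the replicate numbers pair the samples is not stated. Across transcripts, deviations of same-numbered libraries from their group means correlated between -0.177 and 0.167. The deeper library was replicate 2 in controls and replicate 1 with tunicamycin, so these values cannot settle whether samples were paired. With the replicate block, 5 genes were called in the mean of both arms, beside 1.2% of all transcripts. Of the 5, 4 were among those reported, with LOC101245586 lost and Wiv-1 gained. In tunicamycin leaves 3 were called, the 2 reported and Wiv-1, beside 0.49% of all transcripts. The sign turned in 1 case: without control 2 h replicate 2, the 2 h tunicamycin value of LOC101267720 was 5.23 (log2; adjusted p = 0.964), since that library held 156 of its counts, and the lowest value with 1 library left out was -9.45. The cause of the other shifts was not tested. With 2 libraries per group and 1 of them shallow, genes with few counts, such as most SWEET genes, are the least precise.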
